A study of Oncorhynchus mykiss with 24 samples.

Results

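A carbonic anhydrase gene and a beta globin gene of rainbow trout (Oncorhynchus mykiss), LOC100135826 and LOC100136291, were followed on liver arrays read in 2 colours. Each gene has 1 pair of adjacent spots, 11030205 and 11030206 for LOC100135826 (synonym CA2) and 7040207 and 7040208 for LOC100136291 (synonym hbb4). These are 2 of the 32 gene symbols in the annotation used here and 4 of 8736 spots, of which 98 carry a symbol. The genes were chosen by their annotation and by values against the vehicle pool already known from these arrays, so ratios to the pool are a description and were not tested.

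Carbonic anhydrases convert CO2 and water into bicarbonate and a proton, and back, and a form of this enzyme is abundant in vertebrate red cells. Beta globin is a subunit of haemoglobin, the oxygen carrier of red cells. Fish red cells keep their nucleus and hold RNA, so a piece of liver brings blood RNA into the extract. Carbonic anhydrases are also made by other cell types, and trout carry several globin genes. Nothing in the annotation says in which cells LOC100135826 is expressed.

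Juvenile Mt. Shasta trout aged 12 to 18 months were fed a test diet for 12 days and sampled on day 13, with 2 tanks of 6 fish per treatment. The diets held the flavone β-naphthoflavone (BNF, 500 ppm), the estrogen estradiol (E2, 5 ppm), indole-3-carbinol (I3C, 500 or 1500 ppm) or diindolylmethane (DIM, 500 or 1500 ppm), compound names being the usual readings of the abbreviations in the labels. The reference on every array was equal amounts of liver RNA from 12 fish on the vehicle diet with 0.15% dimethyl sulfoxide. Each diet has 2 treated RNA samples, and each sample was hybridised once with the treated RNA in Cy3 and once in Cy5, giving 24 arrays for 12 samples. The labels do not say which or how many fish stand behind a treated sample, so an SD over 2 samples, and each p-value, reflects how far these samples differ, part of which may be technical.

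Values are log2 ratios of treated RNA over pool, centred on the median of each array and averaged over the spot pair and then over the dye swap. The direction is only likely: it takes Cy3 over Cy5 as the deposited ratio, which no label states, and with Cy5 as the numerator higher and lower would change places throughout. Base 2 is taken from the range of the values. In replicate 1 of both E2 and DIM 500 ppm, the 2 arrays opposed those of the same dye layout: their median correlations were -0.70 to -0.54, while the remaining 20 arrays had 0.20 to 0.77. Their direction is not settled. They were turned here, and the main values for these 2 diets are given again below with the signs as deposited. Over all features, adjacent spots correlated at 0.41 and 0.57 on the arrays of BNF replicate 1, against 0.81 to 0.94 elsewhere.

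The spot pairs of both genes gave like readings. For LOC100135826 the 2 spots differed by a median of 0.083 log2 units over the 24 arrays and by at most 0.46, and correlated at 0.99. For LOC100136291 the median gap was 0.12, the largest 0.72 and the correlation 0.93. That largest gap lies on the Cy3 array of I3C 500 ppm replicate 1, where the globin spots read 0.997 and 0.28. Sequence similarity between globin genes, and between carbonic anhydrase genes, was not examined here, so signal from a related transcript on these spots was not tested.

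LOC100135826 stood below the vehicle pool in both samples of 5 diets and close to it with BNF. With E2 the log2 ratios were -0.80 and -0.70 (mean -0.75 ± 0.071, SD, n = 2). With I3C they were -0.64 and -0.47 at 500 ppm (-0.55 ± 0.12, SD, n = 2) and -0.63 and -0.86 at 1500 ppm (-0.75 ± 0.17, SD, n = 2). I3C is the indole of cruciferous vegetables. With DIM, the dimer that I3C forms in acid, they were -0.76 and -0.69 at 500 ppm (-0.73 ± 0.048, SD, n = 2) and -0.61 and -0.42 at 1500 ppm (-0.51 ± 0.14, SD, n = 2). With BNF, which activates the aryl hydrocarbon receptor, they were -0.18 and 0.13 (-0.02 ± 0.22, SD, n = 2). Both BNF samples lay above the 10 samples of the other diets with the arrays turned. With signs as deposited, replicate 1 of E2 and of DIM 500 ppm, at 0.80 and 0.76, would lie above them. How many features separate BNF in this way was not counted. Over all features the 5th and 95th percentiles of the means were -0.29 and 0.34 with BNF, against -0.73 to -0.39 and 0.37 to 0.50 in the other diets. Replicates correlated at 0.16 with BNF and at 0.37 to 0.85 with the others. The positive sign for E2 (0.46) and DIM 500 ppm (0.85) was set by the turn of replicate 1. It would be negative with signs as deposited.

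As linear ratios these means correspond to 0.594 of the pool level with E2, 0.681 and 0.596 with I3C at 500 and 1500 ppm, 0.604 and 0.7002 with DIM at 500 and 1500 ppm, and 0.986 with BNF. With these arrays turned, the order from the lowest mean upwards was E2, I3C 1500 ppm, DIM 500 ppm, I3C 500 ppm, DIM 1500 ppm and BNF. The samples of neighbours in this order overlapped for E2, I3C 1500 ppm and DIM 500 ppm, and for I3C 500 ppm and DIM 1500 ppm. With signs as deposited, E2 and DIM 500 ppm would come last in it, above BNF. LOC100135826 was below 0 in 11 of 12 samples (9 with signs as deposited), and 8.91% of all features were below 0 in at least as many (10.1% with signs as deposited). Of all 4368 features (spot pairs), 1.67% had a lower mean with I3C 500 ppm, 2.43% with E2, 3.48% with I3C 1500 ppm, 5.04% with DIM 500 ppm, 5.88% with DIM 1500 ppm and 44.0% with BNF. With signs as deposited the shares for E2 and DIM 500 ppm were 50.9% and 53.2%.

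Beta globin LOC100136291 was below the pool in both samples with E2 and DIM 500 ppm, and lay on both sides of it or slightly above it in the other 4 diets. With E2 the log2 ratios were -0.32 and -0.34 (mean -0.33 ± 0.010, SD, n = 2). With DIM 500 ppm they were -0.28 and -0.27 (-0.27 ± 0.0034, SD, n = 2). These 4 samples, at 0.795 and 0.827 of the pool level on average, lay below the other 8 with the arrays turned. With signs as deposited, replicate 1 would be at 0.32 with E2 and at 0.28 with DIM 500 ppm. How many features separate these diets in the same way was not counted. With DIM 1500 ppm the values were 0.16 and 0.012 (0.09 ± 0.10, SD, n = 2), and with BNF 0.30 and 0.013 (0.16 ± 0.20, SD, n = 2). With I3C they were 0.30 and -0.12 at 500 ppm (0.09 ± 0.30, SD, n = 2) and 0.041 and 0.12 at 1500 ppm (0.08 ± 0.054, SD, n = 2). Among I3C 1500 ppm, DIM 1500 ppm, I3C 500 ppm and BNF, the order from the third lowest mean to the highest, the samples of all neighbours overlapped.

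Against all features the globin values lay nearer the middle. With E2, 9.34% of features had a lower mean and with DIM 500 ppm 14.1%, while with the other diets 57.1% to 77.0% did. With signs as deposited, 41.0% did with E2 and 42.6% with DIM 500 ppm. Its SD over the 12 samples, 0.23, was above that of 41.5% of features, and that of LOC100135826, 0.29, was above that of 68.8%. With signs as deposited these shares were 27.4% and 92.2%.

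**Figure D1:**
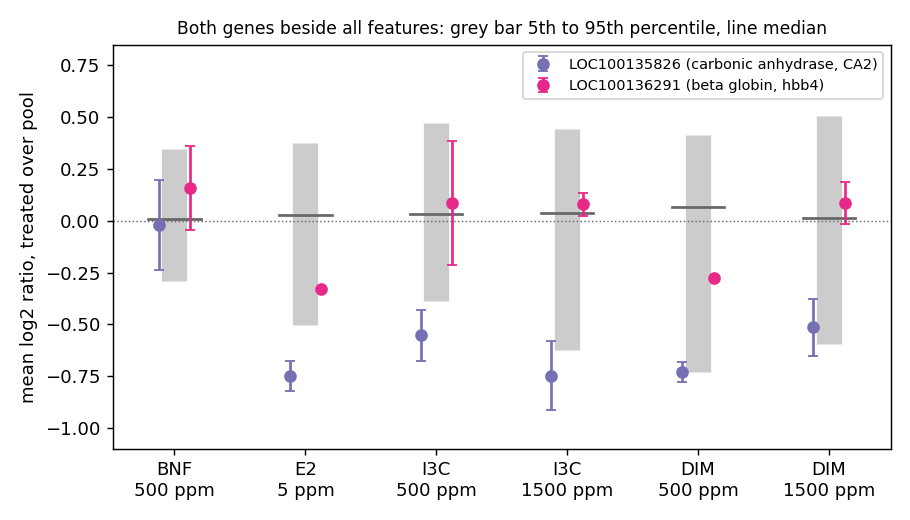
Mean log2 ratio of treated RNA over the vehicle pool for LOC100135826 and LOC100136291 in each diet, with bars of 1 SD over 2 samples, beside the 5th to 95th percentile (grey bar) and median (line) of the means of all 4368 features. The carbonic anhydrase sits at or below the 5th percentile with E2 and both I3C doses, near it with both DIM doses and near the median with BNF, while globin stays inside the grey bar in all 6 diets.

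The level read for LOC100135826 depended on the dye. With the treated RNA in Cy5, all 12 arrays were below 0, from -2.16 to -0.71 with a median of -1.38. With the treated RNA in Cy3, 9 of 12 were above 0, from -0.21 to 0.98 with a median of 0.20. Of the arrays that were not turned, 10 of 10 in Cy5 and 2 of 10 in Cy3 were below 0. The values below the pool given above thus come from averaging the 2 orientations, which removes a dye effect that is equal in both. The distance of each orientation from their mean, the size of such an effect, averaged 0.80 log2 units and ran from 0.49 to 1.29 over the samples, against a median of 0.40 for all features. It was larger than in 95.5% of features with the arrays turned, and as large as or larger than any of the diet means.

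Within 1 dye orientation the diets can be set side by side without that averaging. In Cy5 the 2 BNF arrays of LOC100135826 read -0.72 and -0.71. With the arrays turned they lay above the 10 arrays of the other diets, the highest of which was E2 replicate 2 at -1.19. The share of all features that separate the BNF arrays like this in Cy5 was not counted. In Cy3 the BNF arrays read 0.36 and 0.98. There I3C 500 ppm replicate 2 at 0.53, I3C 1500 ppm replicate 2 at 0.43 and DIM 1500 ppm replicate 2 at 0.40 exceeded the lower BNF array, so the diets overlapped. The lowest Cy3 arrays were those of E2 replicate 2 at -0.21 and DIM 500 ppm replicate 2 at -0.19, which are not turned.

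LOC100136291 showed a smaller dye effect, with that distance at 0.30 on average (0.061 to 0.54 over the samples). The distance was larger than in 36.2% of features with the arrays turned. In Cy3 the globin arrays ran from -0.26 to 0.64 with a median of 0.40, and in Cy5 from -0.65 to 0.16 with a median of -0.39. E2 was the diet with all 4 globin arrays below 0. DIM 500 ppm had 3 of 4, its Cy3 array of replicate 2 being at 0.11. The replicate 1 arrays of both diets were turned, and with signs as deposited they would be above 0. Of the globin arrays that were not turned, 1 of 10 in Cy3 and 9 of 10 in Cy5 were below 0.

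**Figure D2:**
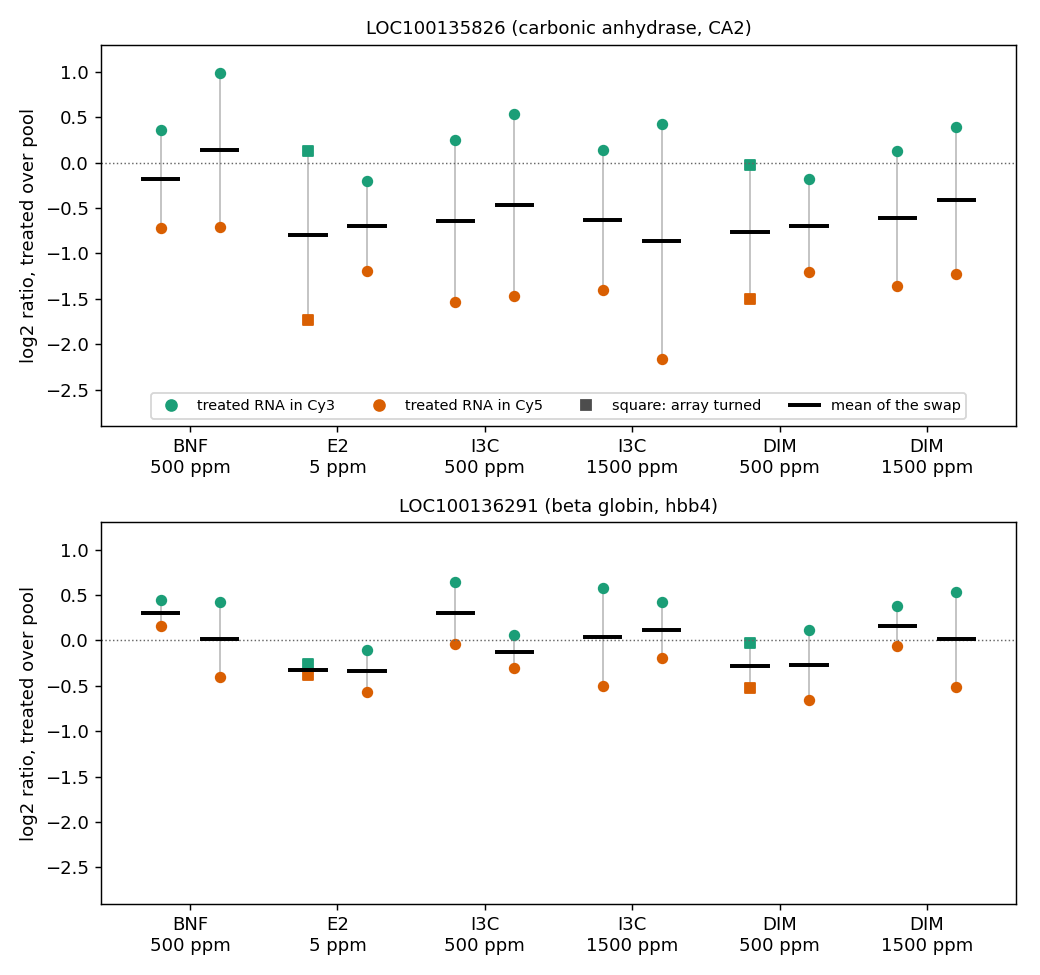
Log2 ratio of treated RNA over the vehicle pool on each of the 24 arrays for LOC100135826 (top) and LOC100136291 (bottom), by diet and replicate (replicate 1 left, 2 right), coloured by the dye of the treated RNA, with squares for the 4 turned arrays and black bars for the mean of each swap. Carbonic anhydrase arrays with treated RNA in Cy5 all lie below 0, while 9 of 12 in Cy3 lie above 0, and the globin readings lie closer together.

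The E2 and DIM 500 ppm values rest in part on the turned arrays. With the signs as deposited, LOC100135826 would average 0.05 with E2 and 0.03 with DIM 500 ppm, and LOC100136291 -0.0073 and 0.0024, since the replicates then oppose each other. Replicate 1 would read 0.80 and 0.76 for LOC100135826 and 0.32 and 0.28 for LOC100136291. With the turned samples left out, the remaining sample read -0.70 and -0.69 for LOC100135826 and -0.34 and -0.27 for LOC100136291. These samples are themselves part of the means above, so their closeness to those means does not check the turn. LOC100135826 was below 0 in E2, both I3C diets and both DIM diets also with the arrays scaled alike (-0.96 to -0.29), with print blocks centred (-0.79 to -0.37) and uncentred (-1.12 to -0.53), and with BNF it stood at 0.06, 0.08 and -0.37. With the linear-ratio array of BNF replicate 1 left out, its BNF mean was 0.25. Replicate 1 is then the Cy3 array alone, at 0.36, so its dye effect is not averaged out. LOC100136291 was below 0 in E2 and DIM 500 ppm under the same settings (-0.70 to -0.21), but not in these diets alone. Uncentred it was also below 0 with BNF (-0.20), I3C 1500 ppm (-0.046) and I3C 500 ppm (-0.38), the last lower than DIM 500 ppm (-0.31). With arrays scaled alike it was at -0.016 with I3C 1500 ppm. Without centring, the median of all features itself lay at -0.34 with BNF and E2, -0.44 with I3C 500 ppm and -0.09 with I3C 1500 ppm. Relative to that median the uncentred values of LOC100135826 were -0.03 with BNF and -0.79 to -0.53 with the other diets. Those of LOC100136291 were -0.36 with E2, -0.34 with DIM 500 ppm and 0.043 to 0.15 with the other diets.

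Less blood in a treated liver than in the pool would lower the RNA of both genes together, if red cells were the source of both. In a bulk sample, fewer cells of a type and less RNA per cell cannot be told apart. Both genes were below 0 in 5 of 12 samples, the 4 samples of E2 and DIM 500 ppm and I3C 500 ppm replicate 2, and with signs as deposited in 3. LOC100135826 was below 0 in 11 samples, and this joint count equals the count of LOC100136291 alone. Of all features, 60.9% were below 0 in at least as many samples as LOC100136291 (95.6% with signs as deposited). In both I3C 1500 ppm samples, both DIM 1500 ppm samples and I3C 500 ppm replicate 1, LOC100135826 was between -0.86 and -0.42 while LOC100136291 was between 0.012 and 0.30. In BNF replicate 2 both were above 0.

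The ratio of LOC100135826 over LOC100136291, each against the pool, was below 0 in 11 of 12 samples, and in 9 with signs as deposited. In both settings these were the samples in which LOC100135826 itself was below 0. For how many other pairs of features such a count holds was not examined. The ratio averaged -0.42 ± 0.082 with E2, -0.45 ± 0.044 with DIM 500 ppm and -0.60 ± 0.24 with DIM 1500 ppm (log2, SD, n = 2). With I3C it averaged -0.64 ± 0.42 at 500 ppm and -0.83 ± 0.22 at 1500 ppm, and with BNF -0.18 ± 0.42 (log2, SD, n = 2). BNF replicate 2, at 0.12, was the exception. With signs as deposited it averaged 0.06 with E2 and 0.03 with DIM 500 ppm.

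Across the 12 samples the genes correlated weakly, with Pearson's r = 0.36 and Spearman's rho = 0.43. This is a description: all points share the vehicle pool, and samples of a diet share that diet. Without the 2 samples farthest from the median of LOC100135826, which are those of BNF, r was 0.24 (n = 10). Over the 6 diet means r was 0.63. Of the 4367 other features, 793 correlated more strongly with LOC100135826 than globin did, and 511 more strongly with LOC100136291 than the carbonic anhydrase did. The value depended on the processing: r was 0.66 with arrays scaled alike, 0.62 uncentred and 0.51 with signs as deposited, 0.45 from the Cy3 orientation and 0.044 from the Cy5 orientation.

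The difference between the replicates of a diet does not contain the diet means and was used to test whether the genes vary together. LOC100135826 and LOC100136291 differed between replicates in the same direction in 1 of 6 diets, DIM 500 ppm, where both differences were small (-0.067 and -0.0049). In the other 5 diets the replicate with more carbonic anhydrase had less globin, as with BNF (-0.31 for LOC100135826 and 0.29 for LOC100136291, replicate 1 minus 2) and I3C 500 ppm (-0.17 and 0.42). These 2 examples include the arrays with the lowest spot correlations and the array with the largest gap between the globin spots. With E2 and I3C 1500 ppm the globin differences were 0.015 and -0.076, smaller in size than the median gap of 0.12 between the globin spots. Pearson's r over the 6 diets was -0.73 (exact two-sided permutation p = 0.0417) and Spearman's rho was -0.83 (exact p = 0.0583). Adjusted over the 2 statistics both p were 0.0583, so no relation passed the threshold of 0.05. The numbers 1 and 2 are arbitrary within a diet and these p hold for the numbering of the labels only: over all 32 ways to number the replicates r ran from -0.97 to -0.54, and the correlation of the differences about 0, which does not depend on the numbering, was -0.81 (no test). Without the 2 diets farthest from the median difference of LOC100135826, BNF and I3C 1500 ppm, r was -0.70 (n = 4). The processing changed both sign and call. The sign turned uncentred (r = 0.63), with arrays scaled alike (0.36), with signs as deposited (0.66) and from the second spot of each pair (0.0087). With signs as deposited the replicates of E2 and DIM 500 ppm oppose each other, so their differences hold the level of the diet against the pool. Uncentred differences hold the array medians, which all features share. In both of these settings r therefore does not measure the relation apart from diet and array levels. Leaving out the turned samples removes the E2 and DIM 500 ppm differences and gave r = -0.80. Too few diets are then left for an exact p under 0.05. With the linear-ratio array of BNF replicate 1 left out r was -0.045. That replicate is then its Cy3 array alone, so the BNF differences hold the dye effect of each gene. The threshold was passed with print blocks centred (r = -0.98, exact adjusted p = 0.00278), from the first spots (-0.89, exact adjusted p = 0.0111) and without I3C 500 ppm (-0.89, exact adjusted p = 0.0167).

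**Figure D3:**
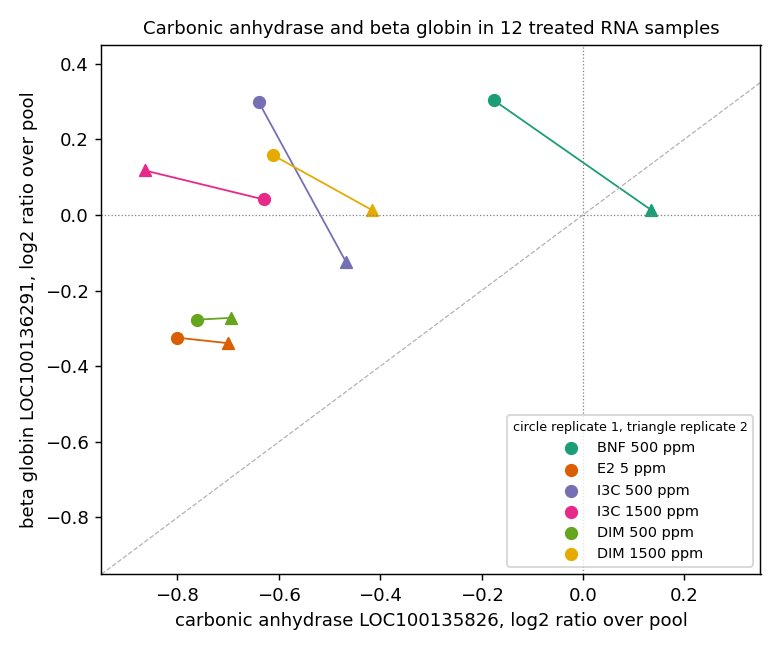
Log2 ratio over the vehicle pool of LOC100136291 (vertical) against LOC100135826 (horizontal) in the 12 treated RNA samples, with the 2 replicates of a diet joined by a line and the dashed line marking equal ratios. E2 and DIM 500 ppm lie low on both axes, the BNF samples lie farthest right, and 11 of 12 points lie above the dashed line, with more globin than carbonic anhydrase relative to the pool.

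A comparison between indole diets is the difference of 2 diet means against the pool. The pool's own level drops out of it, but the treated values are those already known when the genes were chosen. These tests are thus not independent of that choice. The 4 comparisons set I3C against DIM at each dose and the 1500 ppm dose against the 500 ppm dose of each compound. They were tested with limma over all 4368 features with Benjamini-Hochberg adjustment. Neither gene passed an adjusted p of 0.05 in any of the 4. Of all features, limma called 2.82% for I3C against DIM at 500 ppm, 0.0229% for the same at 1500 ppm, 1.08% for the dose of I3C and 0% for the dose of DIM. For the dose of DIM, 54 of 4368 features had an unadjusted limma p under 0.05. That share is below the 0.05 that would be reached with no difference in any feature.

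For I3C minus DIM at 500 ppm, LOC100136291 differed by 0.36 ± 0.21 (log2, SE, 95% interval -0.08 to 0.80, limma adjusted p = 0.669), the I3C samples being 0.30 and -0.12 and the DIM samples -0.28 and -0.27. With the arrays turned these samples did not overlap, and how many features separate likewise was not counted. The interval includes 0. The difference was 0.084 with signs as deposited, 0.15 without I3C 500 ppm replicate 1 and 0.57 without its replicate 2. LOC100135826 differed by 0.17 ± 0.20 (-0.26 to 0.61, limma adjusted p = 0.932), and its sign turned with signs as deposited (-0.59), uncentred (-0.26) and in the Cy5 orientation alone (-0.15). At 1500 ppm the differences were -0.23 ± 0.20 for LOC100135826 (-0.67 to 0.20, limma adjusted p = 0.999) and -0.0063 ± 0.21 for LOC100136291 (-0.45 to 0.44, limma adjusted p = 0.999). The dimer and its parent indole were therefore not distinguished by either gene at either dose, and the intervals allow differences of up to 0.80 in size.

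For dose, LOC100136291 was higher with DIM 1500 ppm than with 500 ppm by 0.36 ± 0.21 without passing the test (-0.08 to 0.80, limma adjusted p = 0.9998; 0.083 with signs as deposited), and LOC100135826 by 0.21 ± 0.20 (-0.22 to 0.65, limma adjusted p = 0.9998), which became -0.55 with signs as deposited. With I3C, 1500 minus 500 ppm gave -0.19 ± 0.20 for LOC100135826 (-0.63 to 0.24, limma adjusted p = 0.705; 0.15 uncentred) and -0.0077 ± 0.21 for LOC100136291 (-0.45 to 0.44, limma adjusted p = 0.988). The dose effect of I3C minus that of DIM was -0.41 ± 0.29 for LOC100135826 and -0.37 ± 0.29 for LOC100136291 (both limma adjusted p = 0.998), with 0.0916% of features called.

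**Figure D4:**
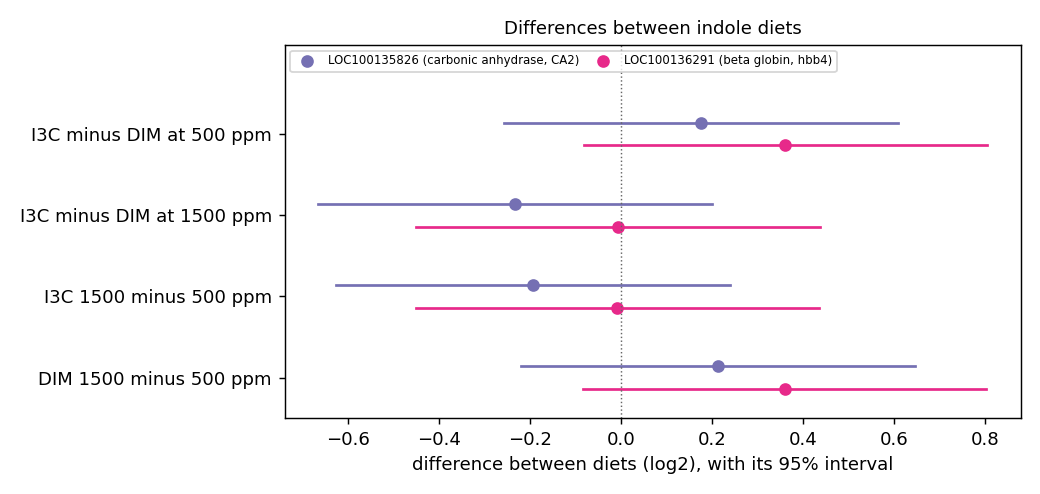
Difference in log2 ratio between indole diets for LOC100135826 and LOC100136291, with the 95% interval from limma, for the 2 comparisons of I3C with DIM and the 2 comparisons of doses. All 8 intervals include 0.

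Other red cell genes could not be set beside this pair. The list of 27 red cell symbols held LOC100135826 and LOC100136291 themselves, and these were the 2 found. The cell type lists were matched by symbol, so a marker annotated under another name would be missed. Of the genes of gas transport and haem metabolism 0 others were named on the array. The gene next to LOC100136291 in the RefSeq annotation of assembly USDA_OmykA_1.1 is an alpha globin gene, LOC100136296 (synonym HBA4), and LOC100135826 lies between rbbp8 and rbis. Neither those genes nor cahz, whose zebrafish counterpart is known as a red cell carbonic anhydrase, was among the named spots. The red cell part of the label therefore rests on the globin annotation alone. Of 7 white blood cell symbols 0 were named.

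Markers of other liver cells were few. Of 20 liver cell symbols 3 were found, on 4 features. The features of ambp, which encodes a plasma protein precursor with a protease inhibitor domain, correlated with LOC100135826 over the 12 samples at 0.76 and 0.73 and with LOC100136291 at 0.22 and 0.10, while antiprot1 did so at 0.57 with LOC100135826 and 0.05 with LOC100136291, and cyp1a3, a cytochrome P450 gene, at -0.09 and -0.22 in the same order. Of 8 stromal symbols, col1a2 and sparc were found. The collagen gene col1a2 correlated with LOC100135826 at 0.69, and the 2 features of sparc, a matrix protein, at 0.15 and -0.53. Over the samples the liver features ranged from -1.33 to 0.53 and the stromal features from -1.23 to 0.51. What these cell types contribute to the values of the pair was not tested.

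Among named features, those most like LOC100135826 by Pearson's r over the 12 samples were ambp (both features) and col1a2. With BNF the ambp features stood at 0.17 and 0.11, and with DIM 500 ppm at -1.09 and -1.11, where LOC100135826 was at -0.02 and -0.73. In E2 they parted, with ambp at -0.29 and -0.26 and LOC100135826 at -0.75. Least like it were LOC100136761 (r = -0.77), sparc (-0.53) and the fatty acid desaturase fd6d (-0.51). LOC100136761 stood at 0.01 with BNF and at 0.79 to 1.95 in the other 5 diets. Of the unnamed features, spots 8010301 and 8010302 (0.91), 7030207 and 7030208 (0.89), and 1010505 and 1010506 (0.89) were most like it.

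Most like LOC100136291 were the features of hsp90ab1, a cytosolic chaperone, at r = 0.70 and 0.67, and LOC100136258 at 0.50. The hsp90ab1 features were at -0.74 and -0.77 with E2 and at -1.06 and -1.02 with DIM 500 ppm, and with DIM 1500 ppm, where globin stood at 0.09, they were at -0.62 and -0.74. Least like it were the sparc features (-0.55 and -0.49) and opi-1 (-0.48). The unnamed features nearest to it were spots 4030611 and 4030612 (0.88), 2040209 and 2040210 (0.87), and 7040105 and 7040106 (0.87). Spots 2040209 and 2040210 stood at -0.34 with E2 and -0.28 with DIM 500 ppm, beside -0.33 and -0.27 for globin, and between -0.05 and 0.08 with the other diets. These correlations were ranked over 12 samples that share a pool and are descriptions. With signs as deposited, all of them kept their sign, from 0.69 to 0.97 for the features named as most like either gene and from -0.94 to -0.34 for those least like. That setting changes the sign of both features in the same samples, which leaves their products as they were. It is therefore a weak check of these correlations.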

How the data were processed

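Livers were measured on 24 arrays of 2 colours, 12 treated RNA samples each against 1 vehicle pool. Per the labels, scanning used ScanArray and QuantArray, and the authors deposited 1 log ratio per spot, taken here as log2, except 1 array (BNF replicate 1, treated RNA in Cy5) deposited as a linear ratio and converted to log2. Background correction, normalisation, log base and numerator were not given in the sources used here. Array medians ran from -0.81 to 1.05, so each array was centred on its median. Intensities were not used here and dim spots were not filtered out, and the number of arrays limits the precision.

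Arrays with a median correlation under -0.3 with the others of their dye orientation (4 arrays) were turned. Adjacent spots and then the dye swap were averaged. The 4368 features were fitted with limma 3.58.1 (R 4.3.3), 1 mean per diet. The fit was also run on simulated data with independent noise for each feature and shifts planted in 1 diet. Those data held no dye effects or turned arrays, so the run does not check how these act on the fit. Features with a Benjamini-Hochberg adjusted p under 0.05 are called. The relation of replicate differences was tested over all 720 pairings. The features named are the pair, the 3 named features with the highest and the 3 with the lowest r with each gene, the 3 most alike unnamed features and the cell type markers on the array. Gene names came from the platform annotation, with symbols updated through the RefSeq table of USDA_OmykA_1.1. The members, lists and settings were chosen with earlier results of these data known. Alternatives covered the centring, scaling, print blocks, single spots, signs, samples left out and, added after seeing the data, each dye orientation alone, BNF left out and other numberings of the replicates.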

Additional observations from a re-analysis of the deposited data

How the results depend on the processing

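Neither gene passed the test in any of the 4 comparisons between indole diets under the alternatives, whose 128 adjusted p (16 for each gene and comparison) lay between 0.390 and 0.99999. The direction was less stable, and where it turned the cause was not tested. For LOC100135826, I3C minus DIM at 500 ppm became -0.59 with signs as deposited, -0.15 from the Cy5 orientation and -0.26 uncentred, and at 1500 ppm it became 0.021 from the Cy3 orientation. Its dose difference became 0.15 uncentred for I3C and -0.55 with signs as deposited for DIM. For LOC100136291, I3C minus DIM at 500 ppm became -0.073 uncentred, and at 1500 ppm 0.040 from spot 7040207 alone and 0.045 from Cy3, with a range of -0.079 to 0.067 when 1 replicate was left out. Its I3C dose difference became 0.0052 from spot 7040208 alone, 0.16 from Cy3 and 0.34 uncentred, with a range of -0.22 to 0.20 when 1 replicate was left out.

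The correlation of replicate differences became 0.36 with arrays scaled alike, 0.66 with signs as deposited, 0.63 uncentred and 0.0087 from the second spot of each pair. As said above, the differences hold diet levels with signs as deposited and array medians when uncentred. With the replicates numbered as in the labels, the correlation passed the threshold at -0.98 with print blocks centred (exact adjusted p = 0.00278), at -0.89 from the first spots (exact adjusted p = 0.0111) and at -0.89 without I3C 500 ppm (exact adjusted p = 0.0167).

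Counts of called features moved more. For I3C minus DIM at 500 ppm, 123 became 0 with signs as deposited, 22 and 50 from Cy5 and Cy3 alone, 42 without the turned samples and 37 to 153 with 1 replicate left out. For the I3C dose, 47 became 0 with arrays scaled alike or signs as deposited, 25 without the linear-ratio array, 15 and 4 from Cy3 and Cy5, and 14 to 145 with 1 replicate left out. Uncentred, the higher calls went from 83 of 123 to 24 of 105 and from 12 of 47 to 38 of 50. The other counts stayed between 0 and 3. A replicate block left the differences as they were (0.36 for LOC100136291 and 0.17 for LOC100135826, I3C minus DIM at 500 ppm), changed no call of either gene and gave 114 and 50 called features in these 2 comparisons. Same-numbered samples did not deviate together, since 6 of 15 correlations of replicate differences between diets were above 0.1 and the range was -0.60 to 0.46, so the numbers are not taken as pairs.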
